A study of Mus musculus with 9 samples.

Results

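NF-κB is a family of dimeric transcription factors that drives inflammatory gene expression, and this account follows the genes of its 5 subunits and of 5 inhibitors and feedback regulators in osteocyte-like cells. The 10 genes were taken by symbol from the table of 56748 genes, and all 10 were found. They are Rela, Rel and Nfkb1 of the canonical pathway, Relb and Nfkb2 of the non-canonical pathway, and Nfkbia, Nfkbie, Nfkbiz, Bcl3 and Tnfaip3. All 10 passed the filter on low counts, with 99 to 3388 counts per library.

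RNA was sequenced from MLO-Y4 cells, an osteocyte-like mouse line made from long bone of mice carrying the simian virus large T antigen under the osteocalcin promoter. The cells grew on collagen-coated wells beneath transwell inserts holding primary articular chondrocytes of C57BL/6J mice aged 5 to 6 days. In the 24 h and 48 h groups the chondrocytes had received 10 ng/ml interleukin-1β for 6 h and were washed before co-culture. In the control group the chondrocytes were unstimulated, and the labels do not give how long this group was co-cultured. Stimulation and time therefore cannot be told apart in a comparison with control. Each group holds 3 libraries. The sample labels give the line as MLO-Y4 for control and 24 h samples but as MLO-Y5, MLO-Y6 and MLO-Y7 for the 48 h samples, although their protocols speak of MLO-Y4 alone. The labels do not say whether libraries came from separate cultures, so p-values measure the spread between these libraries, which may be technical.

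Libraries held 12250628 to 18515456 counts. The osteocyte genes Mepe and Fgf23 had no count in any library, Sost had at most 1 and Dmp1 at most 6, whereas Phex (151 to 363 counts), Pdpn and Gja1 were detected. Of 13 osteocyte and osteoblast markers 9 were tested. At an edgeR adjusted p under 0.05, 4 were higher and 3 lower at 48 h versus control, beside 22% and 24.4% of all genes. Among the higher were Gja1 (log2 fold change 0.69) and Phex (0.43), and among the lower Bglap (-0.59) and Alpl (-0.38). The chondrocyte genes Acan, Col9a1, Col9a2, Matn1 and Cnmd were at 0 in every library and Col2a1 reached at most 7 counts. Sox9 (1379 to 2239 counts), Matn3 (20 to 60), Col11a2 (15 to 39) and Comp (1 to 21) passed the filter on low counts. At 48 h versus control Comp (log2 fold change 1.45, edgeR adjusted p 0.0267) and Sox9 (0.14, adjusted p 0.0449) were higher. Matn3 was lower there (-1.25, edgeR adjusted p 0.00155). Comp passed the filter only through the 48 h group, so its call as higher is not independent of the filter. The summed level of the 12 chondrocyte markers, nearly all of it from Sox9, was 94.4 to 101.8 TPM (counts corrected for gene length and scaled to a common total) in the control libraries, 85.0 to 93.2 in those of 24 h and 108.1 to 111.3 in those of 48 h. Of the 8 macrophage and leukocyte markers, Adgre1, Itgam and Tyrobp were at 0 and Ptprc reached 1 count. Cd14 (153 to 312 counts), Cd68 (26 to 61) and Csf1r (23 to 61) passed the filter. At 24 h versus control Cd14 was higher (log2 fold change 0.62, edgeR adjusted p 0.000304) and Csf1r lower (-0.84, adjusted p 0.0377). Cd14 was higher at 48 h as well (0.27, edgeR adjusted p 0.0285). Summed over the list, the control libraries held 34.8 to 37.4 TPM, the 24 h libraries 46.8 to 50.9 and the 48 h libraries 40.4 to 47.4, most of it from Cd14. The part of these markers in the changes described here was not tested.

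In resting cells, NF-κB dimers are held in the cytoplasm by IκB proteins. Cytokines such as interleukin-1 and TNF activate the IKK kinase complex, which marks IκBα for destruction and frees the canonical dimer of RelA and p50. The non-canonical pathway uses the kinase NIK to process p100, the product of Nfkb2, so that RelB and p52 enter the nucleus. Several inhibitors are themselves NF-κB targets, which gives the pathway its negative feedback. In bone, NF-κB is known above all for its part in osteoclast formation downstream of RANKL.

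The 5 subunit genes had log2 fold changes of at most 0.27 against control, and 2 of them were called higher at 48 h. Of the 5 inhibitor and feedback genes 4 were called higher at 48 h, from 0.35 for Nfkbia to 1.67 for Bcl3. At 24 h versus control, 4 of the 10 genes were called higher, namely Nfkbiz, Bcl3, Nfkbia and Nfkb1, beside 3.25% of the 13812 genes tested called higher and 6.15% called in either direction. A gene is called when its adjusted p lies under 0.05 in the edgeR quasi-likelihood test, with Benjamini-Hochberg adjustment over all genes tested. At 48 h versus control 6 genes were called higher, the same 4 with Tnfaip3 and Rela, beside 22% of all genes called higher and 46.4% called either way. Lower calls made up 2.9% and 24.4% of all genes at the 2 times. No member was called lower at either time by edgeR, DESeq2 or limma-voom, nor had any a negative change with an unadjusted p under 0.05. The median log2 fold change of the 5 inhibitor and feedback genes was 0.41 at 24 h and 0.82 at 48 h, and that of the 5 subunits was 0.19 and 0.14. Over all genes tested the medians were -0.0042 and -0.0022. By complete separation of the libraries, 6 members lay wholly above the control at 24 h, beside 10.3% of all genes (11.2% wholly below), and 6 did at 48 h, beside 25.7% (27.4% below). In cultures of this kind, fewer cells of a type and less RNA per cell cannot be told apart.

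**Figure D1:**
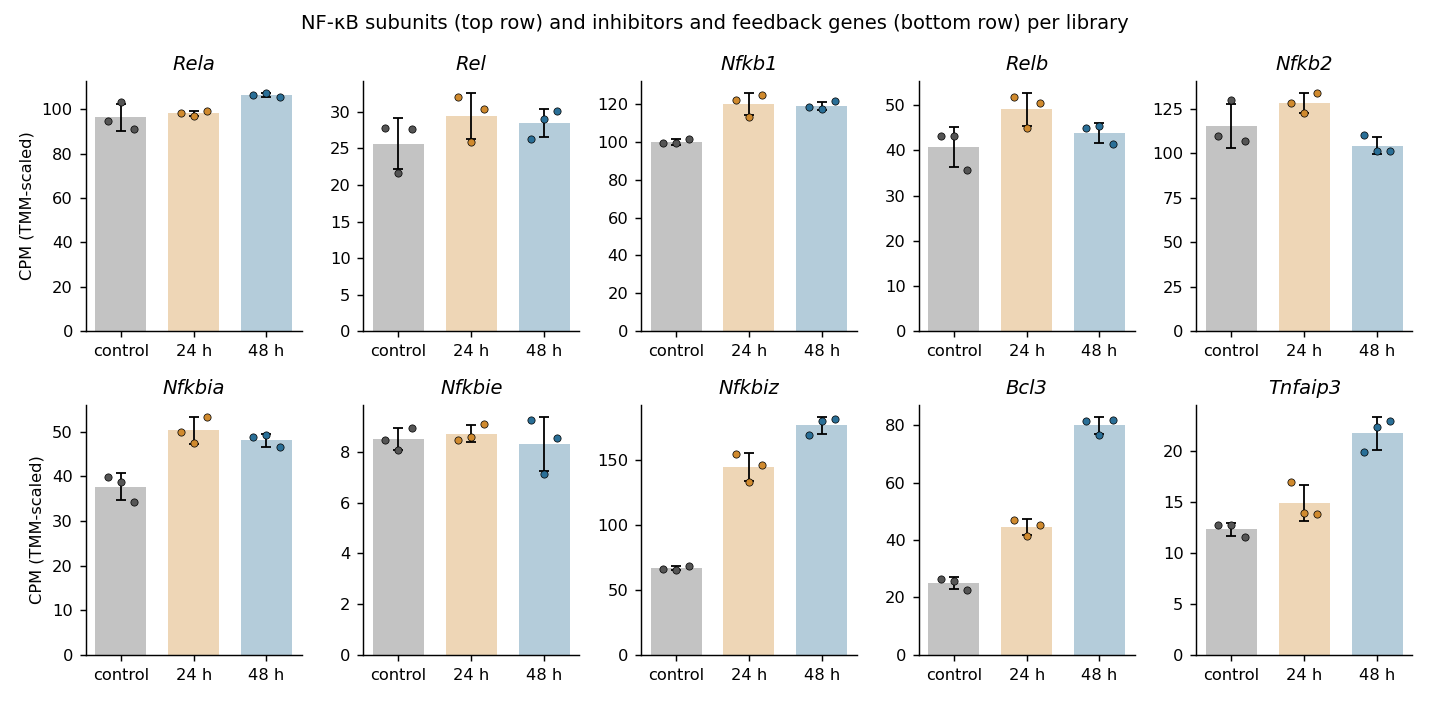
Expression of the 10 NF-κB genes in CPM, counts scaled to library size with TMM factors (vertical axes, each from 0), in control, 24 h and 48 h libraries. Points are single libraries, bars are means of 3 and whiskers are SD. Nfkbiz, Bcl3 and Tnfaip3 stand highest at 48 h, and Nfkb2 is lower at 48 h than at 24 h in every library.

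The promoters of the members were searched for the κB consensus, the site that NF-κB dimers bind, because several members are known to be NF-κB targets. The window ran from 250 bases before to 50 after the start of the canonical transcript in GENCODE on GRCm39, on both strands. A match was found in 8.97% of 21770 protein-coding promoters. It was found in 4 of the 10 members, Relb, Nfkbia, Nfkbie and Tnfaip3. The stretches around the matches before the start are shown 5′ to 3′ on the strand of the gene, with the match in capitals.
Nfkbia, chr12:55539433-55539481, minus strand: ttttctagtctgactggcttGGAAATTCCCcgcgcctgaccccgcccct
Relb, chr7:19363431-19363480, minus strand: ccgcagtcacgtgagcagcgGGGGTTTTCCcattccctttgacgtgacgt
Nfkbie, chr17:45866500-45866549, plus strand: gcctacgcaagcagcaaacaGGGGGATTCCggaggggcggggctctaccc
Tnfaip3, chr10:18891254-18891303, minus strand: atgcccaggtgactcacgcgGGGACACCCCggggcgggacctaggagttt

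The match of Nfkbia lies 29 to 20 bases before its start and reads as the consensus on the opposite strand. Relb and Tnfaip3 each had another match after the start, at bases 37 to 46 and 17 to 26. The members with the largest changes, Nfkbiz and Bcl3, had no match in this window, and neither had Rela, Rel, Nfkb1 or Nfkb2. Nfkbie, which did not pass at either time, had 1. The starts used for Nfkbiz, base 55642919, and Tnfaip3, base 18891186, lie inside the deposited genes, so the stretch printed for Tnfaip3 also lies within its deposited gene. Those of Rel, Nfkb1, Relb, Nfkbie and Bcl3 lie outside the deposited genes, and those of Rela, Nfkb2 and Nfkbia at their edge. The motif TGANTCA of AP-1 was found in Nfkbie and Tnfaip3, apart from the κB matches, and in 7.14% of all promoters. TTCNNNGAA, a STAT motif, was found in none of the members and in 8.81% of all promoters. A match is a matter of letters and does not show a bound site.

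The canonical subunits were taken first. Rela (chromosome 19, 5687511 to 5698158 in GRCm39) encodes the main transactivating subunit. Its level was 94.7, 103.2 and 91.3 CPM in the control libraries, 98.3, 97.1 and 99.4 at 24 h, and 106.2, 107.3 and 105.5 at 48 h. All 48 h libraries lay above all others, by a small margin. The log2 fold change was 0.03 at 24 h (SE 0.06, edgeR adjusted p 0.847) and 0.14 at 48 h (SE 0.06, adjusted p 0.0416). The call at 48 h was lost without control replicate 1 (adjusted p 0.0859), control replicate 3 (0.0968), 24 h replicate 1 (0.0593), 48 h replicate 1 (0.0926), 48 h replicate 2 (0.111) or 48 h replicate 3 (0.0788), and it did not reach an adjusted p of 0.01.

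Nfkb1 (chromosome 3, 135290416 to 135397308) encodes p105, the precursor of p50. It stood at 99.1, 99.1 and 101.6 CPM in the control, at 121.8, 113.2 and 124.5 at 24 h, and at 118.2, 117.3 and 121.3 at 48 h. Every library of stimulated co-culture exceeded every control library, and the times overlapped. The log2 fold change was 0.26 at 24 h (SE 0.05, edgeR adjusted p 0.00453) and 0.25 at 48 h (SE 0.05, adjusted p 0.000793). Both calls held under all 17 alternative settings. For 48 h versus 24 h it was -0.01 (SE 0.05, adjusted p 0.886).

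Rel (chromosome 11, 23686847 to 23720970) encodes c-Rel, a subunit best known from lymphoid cells. It stood at 27.8, 21.6 and 27.6 CPM in the control, 32.0, 25.9 and 30.4 at 24 h, and 26.3, 29.0 and 30.1 at 48 h. The groups overlapped, and the log2 fold changes of 0.19 (SE 0.10, edgeR adjusted p 0.330) and 0.14 (SE 0.10, adjusted p 0.256) did not pass.

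The non-canonical subunits were not called against control at either time. Relb (chromosome 7, 19340142 to 19363363) encodes the partner of p52. Its level was 43.3, 43.3 and 35.7 CPM in the control, 51.7, 44.9 and 50.6 at 24 h, and 44.9, 45.5 and 41.4 at 48 h. The 24 h libraries lay above all control libraries, while those of 48 h overlapped both groups. At 24 h its log2 fold change of 0.27 (SE 0.08) stayed just outside the threshold in the edgeR test (adjusted p 0.0600), and it passed with the replicate number as a block (adjusted p 0.0428), with no filter (0.00742), without control replicate 2 (0.034) and without 24 h replicate 2 (0.0315). The difference of -0.16 on the log2 scale for 48 h versus 24 h (adjusted p 0.103) passed in the fit of those 2 groups alone (adjusted p 0.0404).

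Nfkb2 (chromosome 19, 46292759 to 46300824) encodes p100, both the precursor of p52 and an inhibitor of RelB. It stood at 109.6, 129.7 and 106.8 CPM in the control, 128.2, 122.7 and 133.8 at 24 h, and 110.0, 101.4 and 101.5 at 48 h. Every 48 h library lay below every 24 h library, and the control libraries overlapped both. Nfkb2 was the only member called lower in any comparison in the fit of all 9 libraries. Its log2 fold change for 48 h versus 24 h was -0.30 (SE 0.07, edgeR adjusted p 0.00138), where 25.4% of all genes were called lower and 30.3% lay wholly below. Against control the log2 fold change was 0.15 at 24 h (SE 0.07, adjusted p 0.232) and -0.14 at 48 h (SE 0.07, adjusted p 0.0964). Each missed the threshold with all libraries. The first became a call when control replicate 2 was left out (0.25, adjusted p 0.0119). The second became a call when control replicate 3 was left out (-0.18, adjusted p 0.0364). Psd lies across Nfkb2 on the opposite strand with 139 to 226 counts per library, against 1420 to 1926 for Nfkb2, and the sources do not say whether counting used the strand.

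Among the inhibitors, Nfkbia encodes IκBα, the classical cytoplasmic inhibitor that NF-κB itself induces. Nfkbia (chromosome 12, 55536195 to 55539432) stood at 40.0, 38.8 and 34.4 CPM in the control, 49.9, 47.6 and 53.4 at 24 h, and 48.8, 49.2 and 46.5 at 48 h. Libraries of both times lay above all control libraries and overlapped each other. The κB match printed above lies in its promoter, and the part of this match in these levels was not tested. The log2 fold change was 0.41 at 24 h (SE 0.07, edgeR adjusted p 0.00098) and 0.35 at 48 h (SE 0.07, adjusted p 0.000518), or 1.33-fold and 1.27-fold. The change between the times was -0.06 on the log2 scale (SE 0.07, edgeR adjusted p 0.476).

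Nfkbie (chromosome 17, 45866629 to 45874095) encodes IκBε, another cytoplasmic inhibitor. It was the lowest member in CPM, at 8.09 to 8.95 in the control, 8.48 to 9.10 at 24 h and 7.13 to 9.26 at 48 h. The 3 groups overlapped, and its log2 fold changes of 0.03 (SE 0.13, edgeR adjusted p 0.928) and -0.03 (SE 0.13, adjusted p 0.854) did not pass.

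Nfkbiz and Bcl3 encode IκBζ and BCL-3, atypical IκB proteins of the nucleus. They bind p50 or p52 on DNA and can switch target genes on as well as off, so they are not inhibitors in the sense of IκBα. Nfkbiz (chromosome 16, 55631738 to 55659262) went from 66.0, 65.2 and 68.5 CPM in the control to 154.7, 132.8 and 145.9 at 24 h and 169.0, 179.6 and 180.9 at 48 h. The 3 groups did not overlap. The log2 fold change was 1.12 at 24 h (SE 0.06, edgeR adjusted p 1.43e-09) and 1.41 at 48 h (SE 0.06, adjusted p 3.88e-12), or 2.17-fold and 2.65-fold. Among all 13812 genes ordered by fold change against control it was number 65 from the top at 24 h and number 242 at 48 h.

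Bcl3 (chromosome 7, 19542387 to 19556695) had the largest change of the 10 genes at 48 h. It stood at 26.4, 25.8 and 22.7 CPM in the control, 46.9, 41.3 and 45.2 at 24 h, and 81.4, 76.4 and 81.9 at 48 h. These groups did not overlap either. The log2 fold change was 0.83 at 24 h (SE 0.08, edgeR adjusted p 8.55e-07) and 1.67 at 48 h (SE 0.07, adjusted p 3.7e-12), or 1.78-fold and 3.19-fold. It was number 138 from the top at each time. The noncoding gene Gm16174 overlaps Bcl3 on the opposite strand with 12 to 42 counts per library, against 302 to 1535 for Bcl3. The log2 fold change of Gm16174 against control was 0.05 at 24 h and 1.12 at 48 h. Whether reads were shared between these genes was not tested.

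Tnfaip3 (chromosome 10, 18876658 to 18891405) encodes A20, an enzyme that edits ubiquitin chains and stops signalling upstream of IKK. Its level was 12.7, 12.7 and 11.6 CPM in the control, 16.9, 13.9 and 13.8 at 24 h, and 19.9, 22.4 and 22.9 at 48 h. All 24 h libraries lay above control and below 48 h. At 24 h the log2 fold change of 0.27 did not pass (SE 0.11, edgeR adjusted p 0.169), and at 48 h it was 0.82 (SE 0.10, adjusted p 3.06e-06), or 1.76-fold.

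The direct comparison of 48 h with 24 h tested whether levels differed between the times. Without unstimulated groups of known time, an effect of time in culture cannot be told apart here from a change in the response. Called higher were Bcl3 (log2 fold change 0.85, SE 0.07, edgeR adjusted p 8.98e-09), Tnfaip3 (0.55, SE 0.10, adjusted p 0.000159) and Nfkbiz (0.29, SE 0.06, adjusted p 0.000445). These are 3 of the 5 inhibitor and feedback genes, beside 23.7% of all genes called higher and 49.1% called either way. Over all 10 members, 3 called higher lies near the share of all genes. In each of them, and in Rela, all 48 h libraries lay above all 24 h libraries, as in 29.1% of all genes. With all 9 libraries and TMM scaling no subunit was called higher by edgeR, nor by DESeq2 or limma-voom, and none had a positive change with an unadjusted p under 0.05 in edgeR. The difference in Rela was 0.11 on the log2 scale (SE 0.06, adjusted p 0.0953). It passed when control replicate 2 was left out (0.12, adjusted p 0.0324), with library size only (0.15, adjusted p 0.0277) and in the fit of these 2 groups alone (0.12, adjusted p 0.0333). The changes against control at 24 h and 48 h share the control libraries, so their likeness is not a result.

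**Figure D2:**
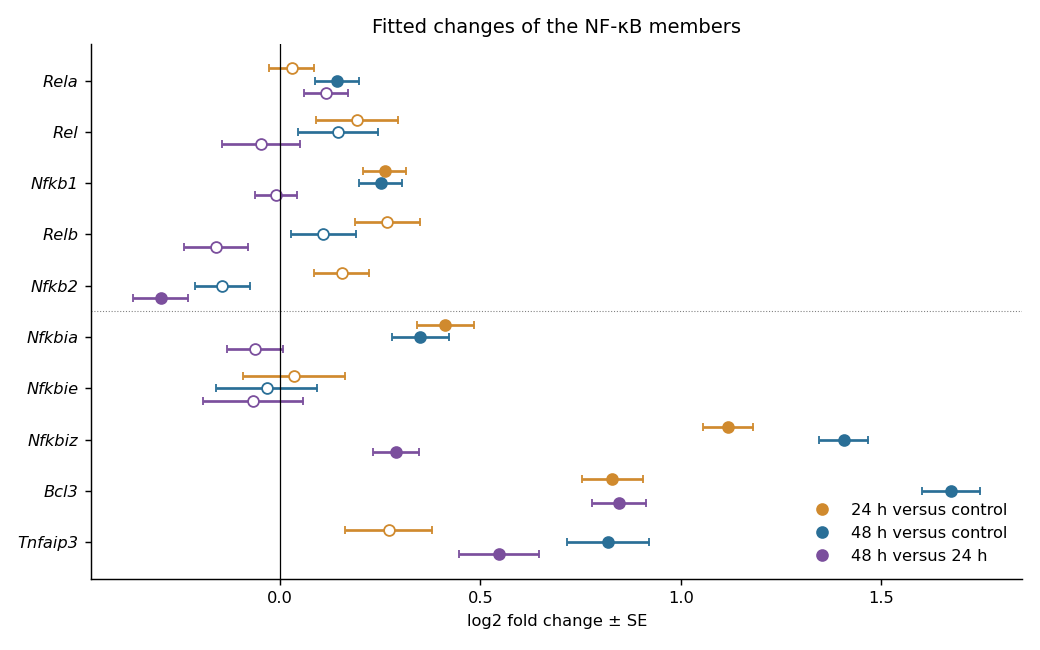
Fitted log2 fold changes (horizontal axis) of the 10 genes with SE as whiskers, subunits above the dotted line and inhibitors and feedback genes below it. Filled points passed an adjusted p of 0.05 and open points did not. Bcl3 at 48 h versus control reaches 1.67, while no subunit exceeds 0.27 against control. For 48 h versus 24 h the subunit gene Nfkb2 lies at -0.30.

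Levels of different genes were set against each other per length, for which TPM was computed from the counts and the deposited gene length. That length is 12061 bases for Nfkb1 and 3072 for Rela, and whether it fits the transcripts expressed here was not tested. The order and shares of genes below depend on it, as do the sizes of the ratios. In CPM without length Nfkb1 held 26.5% of the subunit transcripts in the control and Rela 25.5%. In the control Rela was the most abundant member at 106.1 TPM ± 4.27 (SD, n = 3), followed by Nfkb2 at 85.1 ± 7.30 and Nfkbia at 79.3 ± 4.84, whose libraries overlapped. Nfkbiz (44.9 ± 2.29), Relb (35.4 ± 3.08), Bcl3 (34.2 ± 2.10) and Nfkb1 (28.1 ± 1.10) came next, and only Relb and Bcl3 overlapped among them. Rel (11.7 ± 1.82) and Nfkbie (9.47 ± 0.719) overlapped each other, above Tnfaip3 at 5.77 ± 0.179. At 24 h Rela, Nfkbia, Nfkbiz and Nfkb2 formed a run from 108.5 to 94.9 TPM in which every neighbour overlapped the next. At 48 h Nfkbiz (124.5 ± 5.61) and Rela (122.5 ± 1.05) overlapped at the top and Bcl3 (114.2 ± 4.81) had moved from the sixth place to the third.

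The make-up of the subunit transcripts shifted slightly. In TPM, Rela held 39.8% ± 0.196 (SD, n = 3) of the 5 subunit transcripts in the control, 37.0% ± 1.01 at 24 h and 42.0% ± 0.533 at 48 h. Nfkb2 held 31.9% ± 1.52, 32.3% ± 0.456 and 27.6% ± 1.01. The 48 h libraries lay above the others for Rela and below the others for Nfkb2. The shares of Rel, Nfkb1 and Relb moved less, Nfkb1 from 10.6% ± 0.786 in the control to 12.0% ± 0.352 at 48 h.

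Ratios of transcripts within a library set the inhibitor and feedback genes against the subunits. The ratio of Nfkbia to Rela in TPM was 0.806, 0.718 and 0.719 in the control, 0.970, 0.935 and 1.02 at 24 h, and 0.876, 0.875 and 0.841 at 48 h. It was highest at 24 h without overlap. The ratio of Bcl3 to Nfkb1, its p50 partner gene, went from 1.22 ± 0.114 (SD, n = 3) to 1.81 ± 0.0609 and 3.27 ± 0.0926. The ratio of Bcl3 and Nfkbiz together to Nfkb1 and Nfkb2 together went from 0.701 ± 0.0526 to 1.23 ± 0.0650 and 2.07 ± 0.0917. The ratio of Nfkb2 to Nfkb1 was 2.77 to 3.44 in the control, 2.77 to 2.85 at 24 h and 2.20 to 2.45 at 48 h, lowest at 48 h without overlap. These ratios are descriptions of the libraries, with no test.

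**Figure D3:**
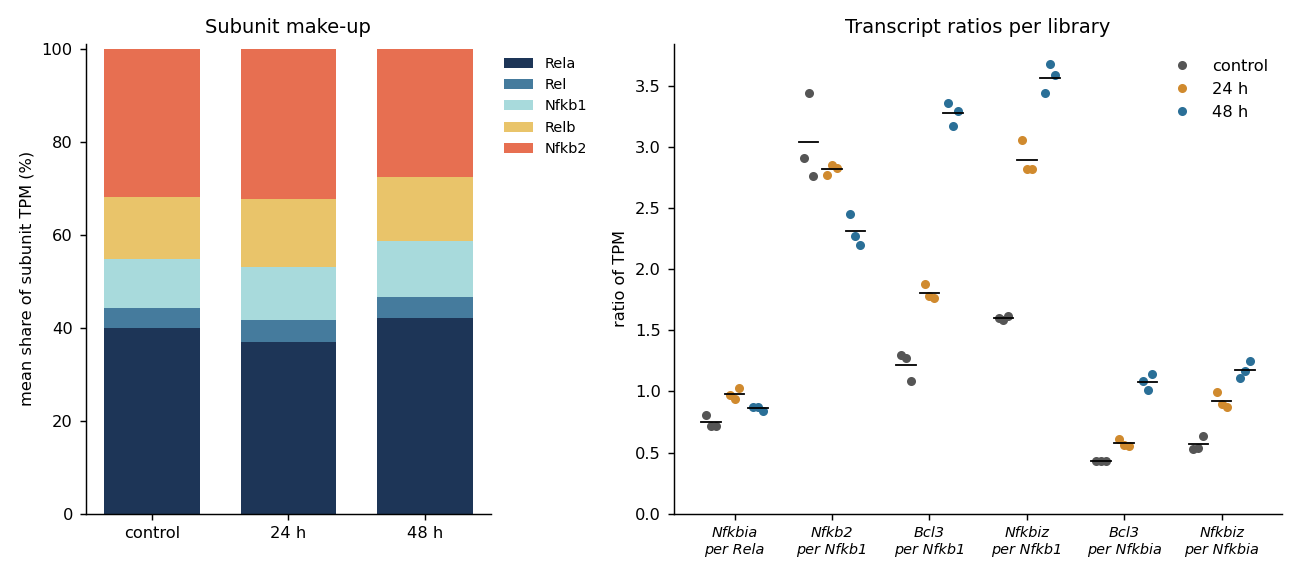
Left, mean share of each subunit in the summed TPM of the 5 subunit genes, in percent, per group. Right, ratios of TPM between pairs of members, with points for single libraries and lines for the means of 3. The ratio of Bcl3 to Nfkb1 goes from 1.22 to 3.27, while that of Nfkb2 to Nfkb1 goes from 3.04 to 2.31.

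Members also differed in how closely their levels followed each other over the 9 libraries. The correlations are of log2 CPM, over libraries that share groups, and are given as a description. The closest pair was Bcl3 and Tnfaip3 (Pearson r 0.95), followed by Nfkb1 and Nfkbiz (0.95) and by Nfkbiz and Bcl3 (0.94). Nfkbia went most closely with Nfkb1 (0.91). Nfkb2 ran against Tnfaip3 (-0.51) and Bcl3 (-0.36). Of the other 10079 protein-coding genes with a mean of at least 5 CPM, those most like Nfkbiz were Ackr3, Hp and Ddit4, each with r of 0.995 to 0.996. Those most like Nfkbia were Lmo4, Ifnar2 and Rcan1 (0.98, 0.98 and 0.97), and those most like Tnfaip3 were Lmbr1, Pnrc1 and Rac3 (0.98, 0.98 and 0.97). Pkm, Mta2 and Dhdds were most like Nfkb2 (0.95 each), and Tmc6, Mier2 and Lzts2 were most like Rela (0.98, 0.97 and 0.96).

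Other genes of the pathway were read from 4 lists put together by hand, with 75 genes of which 68 were tested. Of these 20 were higher and 1 lower at 24 h, beside 3.25% and 2.9% of all genes. At 48 h 27 were higher and 10 lower, beside 22% and 24.4% of all genes. Of 13 genes of the IKK complex and its kinases, none was called at 24 h by edgeR, DESeq2 or limma-voom, while 2 had a positive change with an unadjusted p under 0.05. At 48 h 4 were higher and 9 did not pass, beside 46.4% of all genes called in either direction. The IKK subunits themselves had log2 fold changes at 48 h of -0.14 for Chuk (edgeR adjusted p 0.142), 0.01 for Ikbkb (0.929) and 0.10 for Ikbkg (0.311). Map3k14, which encodes NIK, measured 75.4 CPM ± 5.12 (SD, n = 3) at 48 h, above 53.6 ± 2.85 in control libraries and 51.8 ± 1.98 at 24 h, a log2 fold change of 0.49 against control (SE 0.07, adjusted p 5.72e-06). Map3k8, the kinase TPL2 that p105 holds inactive, rose from 3.17 CPM ± 0.536 (SD, n = 3) to 10.2 ± 1.04 at 48 h (log2 fold change 1.68, SE 0.18, edgeR adjusted p 3.11e-07). Ikbke, an IKK-related kinase, had 0.57 (adjusted p 7.44e-05).

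Of 16 adaptors and ubiquitin ligases, 1 was called at 24 h, higher, beside 6.15% of all genes called either way. At 48 h 5 were higher and 3 lower, 8 of 16 beside 46.4% of all genes, so the count lies near that of all genes at both times. Peli1 was the call at 24 h (log2 fold change 0.34, edgeR adjusted p 0.0422), which neither DESeq2 nor limma-voom made. Traf1, an adaptor of TNF receptors, fell to 2.93 CPM ± 0.520 (SD, n = 3) at 48 h from 9.08 ± 1.97 in the control (log2 fold change -1.63, SE 0.18, adjusted p 7.04e-07). Traf3, whose product directs the destruction of the NIK protein, was lower at 48 h with -0.32 (SE 0.07, adjusted p 0.00156). Irak1 was lower as well (-0.17, adjusted p 0.0137). Birc3 (0.50, adjusted p 0.00421), Peli1 (0.32, adjusted p 0.0110) and Irak4 (0.26, adjusted p 0.00571) were higher.

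Of 15 tested genes among other inhibitors and deubiquitinases, 2 were higher and 1 lower at 24 h, beside 6.15% of all genes called either way. At 48 h 6 were higher and 1 lower, 7 of 15 beside 46.4% of all genes, a share near that of all genes. Zc3h12a, which encodes the RNase Regnase-1 that degrades cytokine transcripts, was highest at 24 h, at 38.8 CPM ± 1.91 (SD, n = 3), against 16.7 ± 0.114 in control libraries and 24.4 ± 1.47 at 48 h. Its log2 fold change for 48 h versus 24 h was -0.67 (SE 0.07, edgeR adjusted p 4.86e-07), the opposite direction to Nfkbiz, Bcl3 and Tnfaip3 in that comparison. Rnf11, a partner of A20, had 0.45 at 24 h (adjusted p 2.47e-05). Pdlim2, which promotes the turnover of RelA, was lower at 24 h (-0.42, adjusted p 0.00186) and higher at 48 h versus 24 h (0.61, adjusted p 1.97e-06). At 48 h versus control Irak3 (0.59, adjusted p 1.59e-05) and Tnip2 (0.48, adjusted p 0.000896) were higher and Otulin was lower (-0.25, adjusted p 0.0167).

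Most of the NF-κB targets tested were higher at 24 h. The hand-made list held 30 targets, of which 24 passed the filter on low counts. Nos2, Lcn2 and Il6 passed it only through the 24 h and 48 h groups. Their control libraries reached 0, 0.226 and 0.828 CPM at most. The calls of these genes as higher are therefore not independent of the filter. Mmp9 and Icam1 passed it only with 24 h libraries counted, and their 48 h libraries reached 0.320 and 0.214 CPM at most. Their calls as lower at 48 h are not independent of the filter either. Of 24 tested targets, 17 were higher and 0 lower at 24 h, beside 3.25% and 2.9% of all genes, where no target had a negative change with an unadjusted p under 0.05 and neither DESeq2 nor limma-voom called one lower. At 48 h 12 were higher and 6 lower, beside 22% and 24.4% of all genes, so the lower count lies near that of all genes. For 48 h versus 24 h 4 were higher and 14 lower, beside 23.7% and 25.4% of all genes. The median log2 fold change was 0.89 at 24 h, 0.54 at 48 h, and -0.44 for 48 h versus 24 h. The medians against control were the same with Nos2, which had no count in the control, placed at its lower bound. Cxcl1, a neutrophil chemokine, was lower at 48 h than at 24 h with -2.26 (SE 0.13, edgeR adjusted p 1.37e-10), as were the cytokine gene Lif (-1.84) and the cyclooxygenase gene Ptgs2 (-1.70). Tnfsf11, which encodes RANKL, moved the other way with 1.17 (adjusted p 3.7e-08), as did Mmp13 (1.06) and Ccl5 (0.87). Against control at 48 h, Csf1 (-1.02), Ptgs2 (-0.78) and Ccl2 (-0.78) were lower, and Saa3 (5.01), C3 (2.93) and Mmp13 (2.91) higher. At 24 h Saa3 (5.51) and Cxcl5 (2.93) were among the largest changes, and Lcn2 measured 6.07, 3.78 and 6.35 CPM, against at most 0.226 in a control library.

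**Figure D4:**
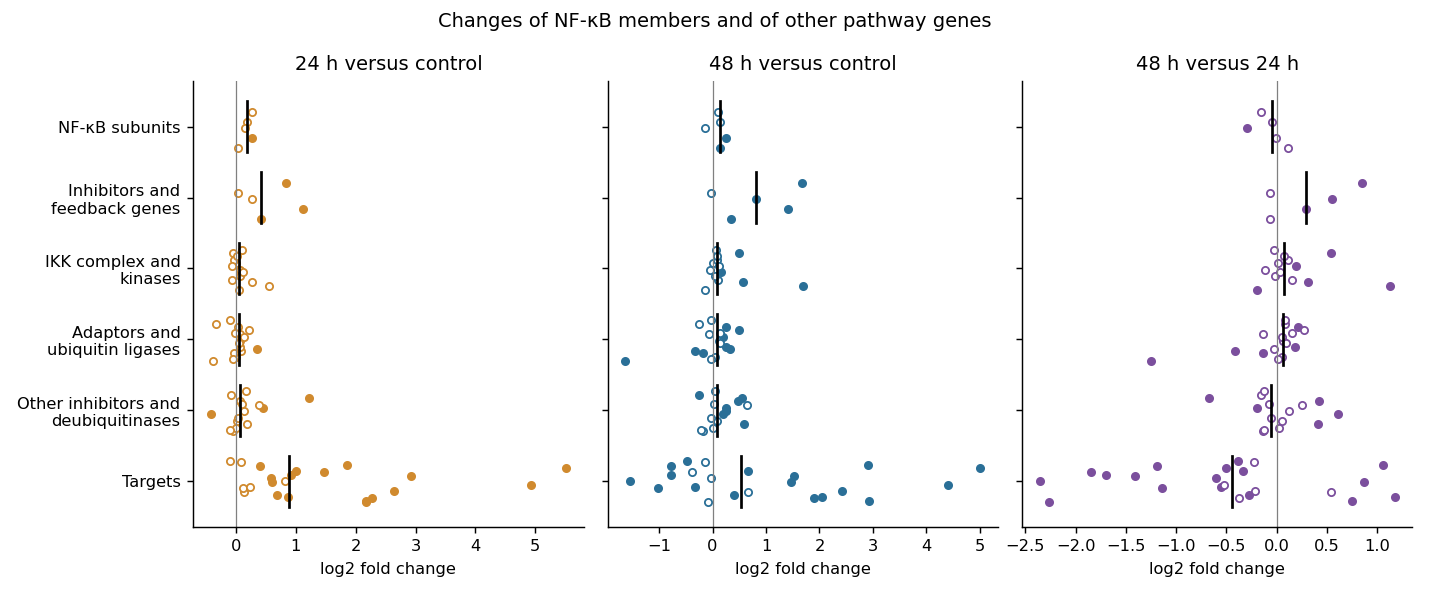
Log2 fold changes (horizontal axes, which differ in range) of the members and of the 4 other pathway lists in the 3 comparisons. Each point is a gene, filled where it passed an adjusted p of 0.05, and black lines are medians over all tested genes of the list. Nos2 and Icam1 are left out of the points, the first for having no count in the control and the second for a mean under 1 CPM. Targets lie mostly to the left of 0 at 48 h versus 24 h, with a median of -0.44, while the median of the 5 inhibitors and feedback genes is 0.29.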

How the data were processed

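The table deposited by the authors holds counts per gene as whole numbers, without normalization. According to labels and study methods, reads of 9 directional libraries were trimmed, aligned to GRCm39 with HISAT2 and counted with featureCounts, whose version differs between the sources. Neither the strand setting nor the handling of reads with several matches is given in the sources used here. The gene length deposited by the authors was used for TPM only.

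Groups and replicate numbers came from the sample titles. Counts were analysed with edgeR 4.0.16 in R 4.3.3. Genes were kept by filterByExpr with a minimum count of 10, which left 13812 genes with 99.9% of the reads, and libraries were scaled by TMM (factors 0.983 to 1.015). The quasi-likelihood model had 1 term, the group, was fitted to the 9 libraries together, and left 6 residual degrees of freedom. Adjustment of p-values followed Benjamini and Hochberg over all 13812 genes, and standard errors were derived from the fold change and the F statistic. Correlations used log2 CPM with a prior count of 2. The procedure was tested on simulated data.

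Replicates differed by more than counting noise (chi-square per degree of freedom 2.26 to 8.14). Alternatives were RLE scaling, library size only, no filter, DESeq2 1.42.0, limma-voom 3.58.1, only the 2 groups compared, an adjusted p of 0.01, a replicate block, and leaving out each library. From each list at most 3 higher and 3 lower called genes per comparison were named, taking the largest changes among genes whose mean reached 5 CPM in a group compared, beside Chuk, Ikbkb, Ikbkg and Map3k14. Protein sequences were not used here. The members, lists, motifs and tests were chosen with earlier results of these data known.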

Additional observations from a re-analysis of the deposited data

Results flagged for a closer look

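In 4 members the level at 48 h differed from that at 24 h by the edgeR test of 48 h versus 24 h, in which the control level does not enter. On the log2 scale the difference, 48 h minus 24 h, was 0.85 for Bcl3, 0.55 for Tnfaip3, 0.29 for Nfkbiz and -0.30 for Nfkb2. The signs of these 4 differences held under all 17 alternative settings, as did their calls. In the same comparison 49.1% of all genes tested were called, so 4 of 10 members does not exceed the share of all genes.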

How the results depend on the processing

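Of the 30 changes of members (10 genes in 3 comparisons), 19 kept direction and call under all 17 settings, and 482 of 510 values did. Those that did not concern Rela, Rel, Nfkb1, Relb, Nfkb2 and Nfkbie, and the cause was not tested. Leaving out 1 library gave 4 to 6 members higher at 24 h, 5 to 6 at 48 h, and 3 to 4 at 48 h versus 24 h. It gave 0 to 1 lower at 48 h, the 1 being Nfkb2 without control replicate 3. With only the 24 h and 48 h libraries in the fit, 2 members were lower at 48 h versus 24 h, Nfkb2 and Relb (log2 fold change -0.16, adjusted p 0.0404), against 1 in the fit of all 9, and Rela was called higher there (0.12, adjusted p 0.0333). Rela at 48 h versus control also missed the threshold with no filter (adjusted p 0.0976) with only the 2 groups compared (0.0647), and at the stricter threshold of 0.01.

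Signs reversed only in changes near 0 that were not called. Over the libraries left out, the log2 fold change ran from -0.002 to 0.0821 for Rela at 24 h versus control and from -0.1168 to 0.0626 for Nfkbie at 48 h versus control. At 48 h versus 24 h it ran from -0.1245 to 0.0165 for Rel, from -0.0418 to 0.0261 for Nfkb1 and from -0.1514 to 0.0278 for Nfkbie. With library size only, Nfkb1 had 0.0286 in that comparison.

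In CPM without length the shares among subunits in control, 24 h and 48 h were 25.5%, 23.2% and 26.5% for Rela, 6.82%, 6.92% and 7.08% for Rel, 26.5%, 28.2% and 29.6% for Nfkb1, and 10.8%, 11.5% and 10.9% for Relb. For Nfkb2 they were 30.5%, 30.2% and 25.9%, lower at 24 h than in the control, whereas in TPM the share was higher at 24 h. From control to 48 h the share of Nfkb1 moved more than that of Rela in CPM, whereas in TPM it moved less.

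Same-numbered libraries of different groups deviated together with correlations of -0.05 to 0.08 over 9 pairs, so the numbers were not taken to pair samples. With the replicate block Relb passed at 24 h (log2 fold change 0.27, adjusted p 0.0428), as it did with no filter and without control replicate 2 or 24 h replicate 2. This made 5 members higher under the block, and no other member's call changed with it. Counts for the 4 lists and their sum moved by over 1.5 times in 35 of 510 cases. Nfkbie, with 99 to 162 counts per library, has the least precise values.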
